A study of Homo sapiens with 6 samples.

Results

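The transforming growth factor beta (TGF-beta) genes described here are 10 of the 30618 genes in the count table: the ligands TGFB1, TGFB2 and TGFB3, the receptors TGFBR1, TGFBR2 and TGFBR3, the latent TGF-beta binding proteins LTBP1 and LTBP2, the inhibitory SMAD7, and TGFBI, an extracellular matrix protein named for its induction by TGF-beta. They were found by gene symbol, and all 10 passed the filter on low counts. They were chosen from results of the same comparison of siEIF1 with NC libraries that is described below, so their differences are given as a description, without p-values.

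RNA-seq was performed on ARPE-19 cells, an established human retinal pigment epithelial (RPE) line, to ask which transcripts change when EIF1 is depleted under high glucose. EIF1 is a translation initiation factor that helps the ribosome choose the start codon. All cells were kept in 50 mM glucose. The NC group (n = 3) received a non-targeting siRNA and the siEIF1 group (n = 3) received an siRNA against EIF1, both by lipid-mediated transfection. The methods describe the 3 samples of each group as independent biological replicates, and all 6 directional poly(A) libraries were sequenced in a single run. The comparison was made within high glucose only, without normal-glucose libraries, and with 1 EIF1 siRNA as far as the labels show.

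TGF-beta ligands are secreted in a latent form, wrapped in their own propeptide and usually tethered to the matrix by a latent TGF-beta binding protein. Integrins, proteases and thrombospondin release the active ligand, which binds the type II receptor TGFBR2. TGFBR2 then recruits and phosphorylates the type I receptor TGFBR1, and this receptor phosphorylates SMAD2 and SMAD3, which enter the nucleus with SMAD4. SMAD7 closes a negative feedback loop at the receptor. In the RPE, TGF-beta is known as a driver of the epithelial to mesenchymal transition and of fibrosis, and TGF-beta 2 is regarded as the main isoform of the posterior eye.

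EIF1 stood at 294.35, 281.08 and 281.28 FPKM (fragments scaled to transcript length and to the mapped fragments of the library) in NC replicates 1 to 3 and at 24.28, 22.68 and 23.5 FPKM in siEIF1 replicates 1 to 3, in the direction of the labels. The libraries held 26499929 to 31431479 counts. A principal component analysis used log2 CPM (counts scaled to the library total times a TMM normalization factor, 0.9812 to 1.015 here). The first component separated the groups (44.5% of the variance). The second (20.5%) spread the siEIF1 libraries from 26.08 for replicate 1 to -21.25 for replicate 3. Of 14 RPE markers, 6 were above 1 FPKM in every library (KRT8, KRT18, BEST1, OTX2, MITF and SERPINF1), whereas the pigment genes TYR, TYRP1, DCT and PMEL and the visual cycle genes LRAT and RLBP1 were below 1 FPKM in every library, and RPE65 and TTR were not analysed here. The summed FPKM of the RPE markers was 522.8 to 541.7 in NC and 565.6 to 611.6 in siEIF1 libraries, while the endothelial markers summed to at most 0.26 FPKM and the leukocyte markers to at most 1.01 FPKM. Most of that sum came from KRT18 (means of 326.5 and 382.0 FPKM) and KRT8 (113.0 and 131.5 FPKM), both called higher in siEIF1. BEST1 had a lower mean in siEIF1 (66.0 and 52.0 FPKM) and was not called, and RLBP1, at under 1 FPKM, was called 2.92-fold higher. The part of the RPE marker difference in the values below was not tested.

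To set the TGF-beta genes beside the DNA from which they are transcribed, the RefSeq windows of 250 bases before each annotated start site (GRCh38.p14) were searched on both strands for 7 short motifs, none of which contains another. All 10 genes matched, with 23 windows. The windows below belong to the 4 genes whose siEIF1 values were called higher under every alternative processing, and are written 5′ to 3′ on the gene's strand, with the motifs found in capitals. Bases that are exonic in an overlapping transcript model are left out.

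TGFB3 has 2 annotated start sites, both read on the reverse strand. The inner window, chr14:75981996-75982245, lies inside the longest gene model and has a TATA box (TATAAA) starting 30 bases before its start site. The outer window, chr14:75983012-75983261, has an E-box (CACGTG) 20 bases before its start site.
TGFB3 inner start site: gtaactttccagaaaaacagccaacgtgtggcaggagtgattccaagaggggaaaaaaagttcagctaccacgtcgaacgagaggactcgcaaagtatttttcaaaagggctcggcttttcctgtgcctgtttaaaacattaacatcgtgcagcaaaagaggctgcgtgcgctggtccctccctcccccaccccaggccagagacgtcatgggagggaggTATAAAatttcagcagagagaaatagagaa
TGFB3 outer start site: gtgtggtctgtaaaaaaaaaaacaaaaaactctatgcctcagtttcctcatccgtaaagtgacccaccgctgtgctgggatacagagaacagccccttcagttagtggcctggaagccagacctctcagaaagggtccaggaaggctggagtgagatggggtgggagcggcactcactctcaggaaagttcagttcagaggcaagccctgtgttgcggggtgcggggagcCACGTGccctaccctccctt
The windows of LTBP2 (chr14:74612379-74612487, reverse strand, 141 exonic bases left out), TGFBI (chr5:136028738-136028987, forward strand) and TGFBR3 (chr1:91886152-91886401, reverse strand) held GC boxes (GGGCGG, or CCGCCC on the other strand).
LTBP2: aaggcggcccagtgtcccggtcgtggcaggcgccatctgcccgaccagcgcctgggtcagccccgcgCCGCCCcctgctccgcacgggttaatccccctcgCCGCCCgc
TGFBI: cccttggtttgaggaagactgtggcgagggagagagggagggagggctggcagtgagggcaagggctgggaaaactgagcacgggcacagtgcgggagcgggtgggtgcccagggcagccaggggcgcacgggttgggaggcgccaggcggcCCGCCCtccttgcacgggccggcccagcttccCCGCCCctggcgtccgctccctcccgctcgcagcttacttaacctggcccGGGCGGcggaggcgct
TGFBR3: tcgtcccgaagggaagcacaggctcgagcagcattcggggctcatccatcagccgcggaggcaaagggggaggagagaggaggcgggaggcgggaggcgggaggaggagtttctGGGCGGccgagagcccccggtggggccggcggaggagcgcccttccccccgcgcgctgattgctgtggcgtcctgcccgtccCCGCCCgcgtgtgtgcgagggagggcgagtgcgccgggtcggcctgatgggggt
The base composition differed among these windows, with 49.2% and 54.8% G and C in the TGFB3 windows. LTBP2 had 77.1% (over the 109 bases kept), TGFBI 72.8% and TGFBR3 73.6%. Low values were not particular to TGFB3, with 48.0%, 58.4% and 48.4% in the SMAD7 windows and 40.8% and 58.4% in the TGFBR2 windows. Over all 35116 windows, 10.7% held a TATA box, 6.34% the E-box and 42.6% a GC box. Counted in the same way, over full windows, 3 of the 23 windows of the 10 genes held a TATA box, 2 the E-box and 9 a GC box. By gene, 3 of the 10 had a TATA box in at least 1 window (TGFB2, TGFB3 and SMAD7). The E-box was in 2 genes (TGFB2 and TGFB3) and a GC box in 6. A gene has 1 to 8 windows, so these counts of genes do not compare with the shares of windows. All 250 bases of the TGFB2 window are exonic in an overlapping transcript model, so its matches lie in exonic sequence. The cyclic AMP response element (TGACGTCA, 1.65% of windows) was found in a window of LTBP1. The palindromic SMAD binding element (GTCTAGAC, 0.182%), the AP-1 element (TGACTCA, 4.2%) and the E2F element (TTTGGCGC, 0.55%) were found in 0 of the 23 windows. Such a match is a string of letters, and no binding was measured.

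The plot of levels shows the 10 genes over a wide range. TGFBI had the highest FPKM, followed by TGFB2, TGFB1, LTBP2, SMAD7, TGFBR2, TGFBR1, LTBP1, TGFBR3 and TGFB3, and the order of the group means was the same in NC and siEIF1. Among the tested genes, TGFBI stood at the 97.9 percentile of mean NC FPKM and TGFB3 at the 9.71 percentile. In NC, no 2 neighbours in this order overlapped over the 3 libraries. In siEIF1, TGFB1 and LTBP2 overlapped, as did LTBP1 and TGFBR3, so these neighbours did not differ beyond their spread.

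**Figure D1:**
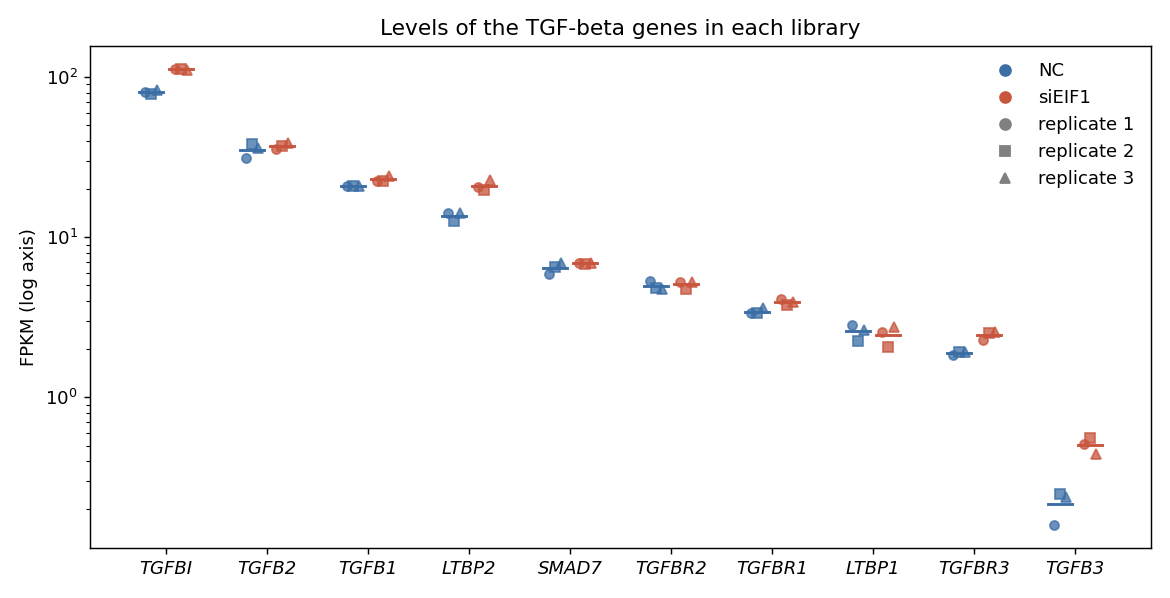
FPKM (log axis) of the 10 TGF-beta genes in each library, with NC in blue, siEIF1 in red, a marker shape for each replicate number and a bar at the group mean. TGFBI lies highest, with means of 80.7 and 111.8 FPKM, and TGFB3 lowest, with means of 0.217 and 0.503 FPKM.

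Calls rest on the quasi-likelihood test of edgeR, with an adjusted p (over all 16749 tested genes) under 0.05. Of the 10 TGF-beta genes, 6 were called higher in siEIF1 and 0 lower, where 10.2% of all tested genes were called higher and 10.4% lower. Their median log2 fold change was 0.19, against 0.0033 over all tested genes. In 7 of them every siEIF1 library was above every NC library in CPM, as for 18.2% of tested genes, and in 0 every siEIF1 library was below (18.9% of tested genes). Only TGFB3 was also past the study's fold limit of 2, as were 0.400% of tested genes, and 0 were below a fold of 0.5 (1.31%). Because the comparison was in view when the genes were chosen, nothing is read from these counts.

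**Figure D2:**
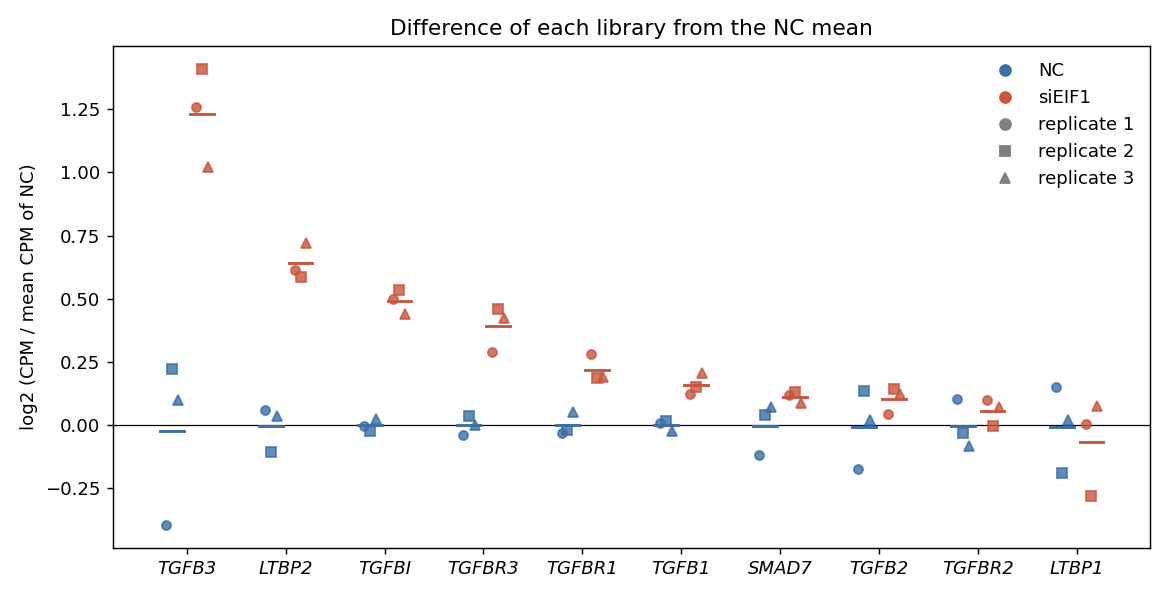
Difference of each library from the NC mean, as log2 of CPM over mean NC CPM, for the 10 TGF-beta genes ordered by size, with a bar at the group mean. The siEIF1 libraries of TGFB3, LTBP2, TGFBI and TGFBR3 lie farthest above the NC libraries, and those of TGFB2, TGFBR2 and LTBP1 overlap them.

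The ligands differed in how they moved. TGFB3 (ENSG00000119699.8, chr14:75958097-75983011), the least abundant ligand here, had 28, 46 and 42 counts in NC replicates 1 to 3 and 103, 107 and 84 counts in siEIF1 replicates 1 to 3. Every siEIF1 library was thus above every NC library. The exact 95% Poisson intervals of the highest NC and the lowest siEIF1 library were 33.7 to 61.4 counts and 67.0 to 104 counts. They cover counting error only, on counts not scaled to library size. TGFB3 was chosen with this difference in view, so nothing is read from their separation. In FPKM these libraries were at 0.16, 0.25 and 0.24 against 0.51, 0.56 and 0.44, with means of 0.217 ± 0.0493 (SD, n = 3) and 0.503 ± 0.0603 (SD, n = 3). The log2 fold change was 1.23 (SE 0.201), a 2.35-fold higher level, and it ranged from 1.07 without NC replicate 1 to 1.35 without NC replicate 2. In bulk RNA, more TGFB3 transcript per cell and more cells with the transcript cannot be told apart.

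TGFB2 (ENSG00000092969.12, chr1:218345336-218444619) was the most abundant ligand, at 31.0, 38.16 and 35.96 FPKM in NC replicates 1 to 3 and 35.72, 37.24 and 38.47 FPKM in siEIF1 replicates 1 to 3. The groups overlapped, with NC replicate 1 low and the other 5 libraries close together. Its log2 fold change of 0.10 (SE 0.068) was not called, and without NC replicate 1 it was 0.025. TGFB1 (ENSG00000105329.11, chr19:41301587-41353922), the isoform most widely studied in wound repair and immunity, had 20.91, 20.90 and 20.80 FPKM in NC and 22.43, 22.31 and 24.23 FPKM in siEIF1 replicates 1 to 3. The NC libraries had a coefficient of variation of 0.291% in FPKM and were less close in CPM, at 83.53, 84.0 and 81.75. All siEIF1 libraries were above them, at 90.45, 92.18 and 95.75 CPM. This small difference (log2 fold change 0.16, SE 0.047, 1.12-fold) was called, but the call held in only 6 of 15 alternatives. It was lost without NC replicate 1, 2 or 3 and without siEIF1 replicate 2 or 3, with log2 fold changes of 0.136 to 0.164 in those fits.

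Counted per length, the 3 ligands together came to 52.07, 59.31 and 57.0 FPKM in NC and 58.66, 60.11 and 63.14 FPKM in siEIF1 replicates 1 to 3. TGFB2 made up 59.5% to 64.3% of this sum in NC and 60.9% to 62.0% in siEIF1, and TGFB1 35.2% to 40.2% and 37.1% to 38.4%, both with overlapping groups. TGFB3 gave 0.307%, 0.422% and 0.421% of the sum in NC and 0.869%, 0.932% and 0.697% in siEIF1 libraries. The ligand with the widest relative difference therefore stayed under 1% of the ligand transcripts in every library.

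Among the receptors, TGFBR3 (betaglycan, ENSG00000069702.11, chr1:91680343-91906335), a coreceptor that presents ligand, TGF-beta 2 in particular, to TGFBR2, differed most. It stood at 1.84, 1.92 and 1.91 FPKM in NC replicates 1 to 3 and at 2.28, 2.51 and 2.55 FPKM in siEIF1 replicates 1 to 3. No siEIF1 library overlapped NC, and the log2 fold change was 0.39 (SE 0.068, 1.31-fold, called higher). The type I receptor TGFBR1 (ENSG00000106799.13, chr9:99104038-99154192), the kinase that phosphorylates SMAD2 and SMAD3, had 3.34, 3.35 and 3.59 FPKM in NC and 4.11, 3.75 and 3.93 FPKM in siEIF1 libraries. Its groups did not overlap, and its log2 fold change of 0.22 (SE 0.060, 1.16-fold) was called higher. The TGFBR1 call held in 9 of 15 alternatives and was lost without NC replicate 1 (0.203), NC replicate 2 (0.204) or siEIF1 replicate 1 (0.187).

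The type II receptor TGFBR2 (ENSG00000163513.19, chr3:30606601-30694142), which binds the ligand first, was at 5.30, 4.80 and 4.74 FPKM in NC and 5.23, 4.75 and 5.24 FPKM in siEIF1 replicates 1 to 3. All siEIF1 values lay within the NC range, and the log2 fold change of 0.06 (SE 0.062) was not called. Per library, the FPKM ratio of TGFBR3 to TGFBR2 was 0.347, 0.4 and 0.403 in NC and 0.436, 0.528 and 0.487 in siEIF1. By contrast, the ratio of TGFBR2 to TGFBR1 was 1.59, 1.43 and 1.32 in NC and 1.27, 1.27 and 1.33 in siEIF1, with 1 siEIF1 value inside the NC range.

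Of the binding proteins, LTBP1 (ENSG00000049323.16, chr2:32946953-33399509), which binds the latent ligand covalently and anchors it in the matrix, had 2.85, 2.24 and 2.65 FPKM in NC and 2.56, 2.05 and 2.74 FPKM in siEIF1 replicates 1 to 3. Replicate 2 was the lowest library in both groups, which overlapped. Its log2 fold change was -0.056 (SE 0.0999, not called), and it ranged from -0.148 without NC replicate 2 to 0.042 without siEIF1 replicate 2. LTBP2 (ENSG00000119681.12, chr14:74498183-74612378) is built like LTBP1 but does not bind latent TGF-beta, and is known as a microfibril protein of elastic tissue and the eye. LTBP2 reached 14.18, 12.55 and 14.16 FPKM in NC and 20.59, 19.72 and 22.65 FPKM in siEIF1 replicates 1 to 3. All siEIF1 libraries were above all NC libraries, with means of 13.6 ± 0.935 and 21.0 ± 1.50 FPKM (SD, n = 3 each). The log2 fold change was 0.64 (SE 0.056, 1.56-fold, called higher). The LTBP2 to LTBP1 ratio of FPKM was 4.98 to 5.6 in NC and 8.04 to 9.62 in siEIF1 libraries.

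SMAD7 (ENSG00000101665.10, chr18:48919853-48950965), which is itself a direct TGF-beta target and recruits ubiquitin ligases to the receptor, was at 5.92, 6.56 and 6.86 FPKM in NC and 6.91, 6.79 and 6.91 FPKM in siEIF1 replicates 1 to 3. In CPM every siEIF1 library was above NC (28.61, 31.9 and 32.58 against 33.69, 33.94 and 32.99), whereas in FPKM siEIF1 replicate 2 fell within the NC range. The log2 fold change of 0.11 (SE 0.063) was not called. TGFBI (ENSG00000120708.17, chr5:136028988-136063818), a secreted protein that binds collagens and integrins and that aggregates in inherited corneal dystrophies, was the most abundant of the genes, at 80.33, 78.60 and 83.18 FPKM in NC and 112.61, 112.55 and 110.29 FPKM in siEIF1 replicates 1 to 3. The groups lay far apart relative to their spread (80.7 ± 2.31 and 111.8 ± 1.32 FPKM, SD, n = 3 each). TGFBI had a log2 fold change of 0.49 (SE 0.049, 1.41-fold, called higher).

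Some of these genes share exon bases with a gene on the other strand, and the strand setting of the counting is not given in the sources used here. TGFB1 shares 215 exon bases with HNRNPUL1, which had 6471 to 7205 counts in NC and 7700 to 8152 counts in siEIF1 libraries and a log2 fold change of 0.079 (SE 0.0515), so reads in the shared bases of this pair cannot be assigned with certainty. TGFB2 shares 701 bases with TGFB2-AS1 (5 to 16 counts a library) and TGFB3 shares 163 bases with TGFB3-AS1 (0 to 1 counts). For LTBP1 and LTBP2 the opposite-strand transcripts had at most 13 counts in any library. IFT43 overlaps TGFB3 on the other strand with 0 shared exon bases.

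To see which transcripts followed the pattern of TGFB3, log2 CPM was correlated over the 6 libraries with 13382 other tested genes of at least 50 mean counts. The nearest were MAPK3, the kinase ERK1 (Pearson r = 0.9994), BTG2, an antiproliferative gene (r = 0.9983), and RABGAP1L, a Rab GTPase-activating protein (r = 0.9982). Their log2 fold changes were 0.278, 0.492 and 0.287, all smaller than that of TGFB3, and 527 genes had an r above 0.95. Within the set, TGFBI (r = 0.954), TGFBR3 (0.940) and TGFBR1 (0.918) were nearest to TGFB3, while TGFBR2 (0.141) and LTBP1 (-0.463) were the farthest. These 6 points share the difference between the groups, and the values are a description only.

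The wider TGF-beta pathway was described with 8 gene lists by role, which hold 130 genes and none of the 10 above. The count table held 121 of them, and 95 passed the filter on low counts. By edgeR's quasi-likelihood test, adjusted over all tested genes, 22 of the 95 rose (23.2%, against 10.2% of all tested genes), 10 fell (10.5%, against 10.4%) and 63 did not pass, with a median log2 fold change of 0.049 (0.0033 over all tested genes). The share that fell was that of the background. With the replicate number as a block, 16 fell and 24 rose. The shares of all tested genes given here come from the unpaired fit and do not compare with the counts under the block. The lists were written with earlier results of these libraries known, so their counts are not independent evidence of a direction. Only FST passed the fold limit of 2 or 0.5, and under the block INHBE and IL11 did too (log2 fold changes of -1.16 and -1.08).

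**Figure D3:**
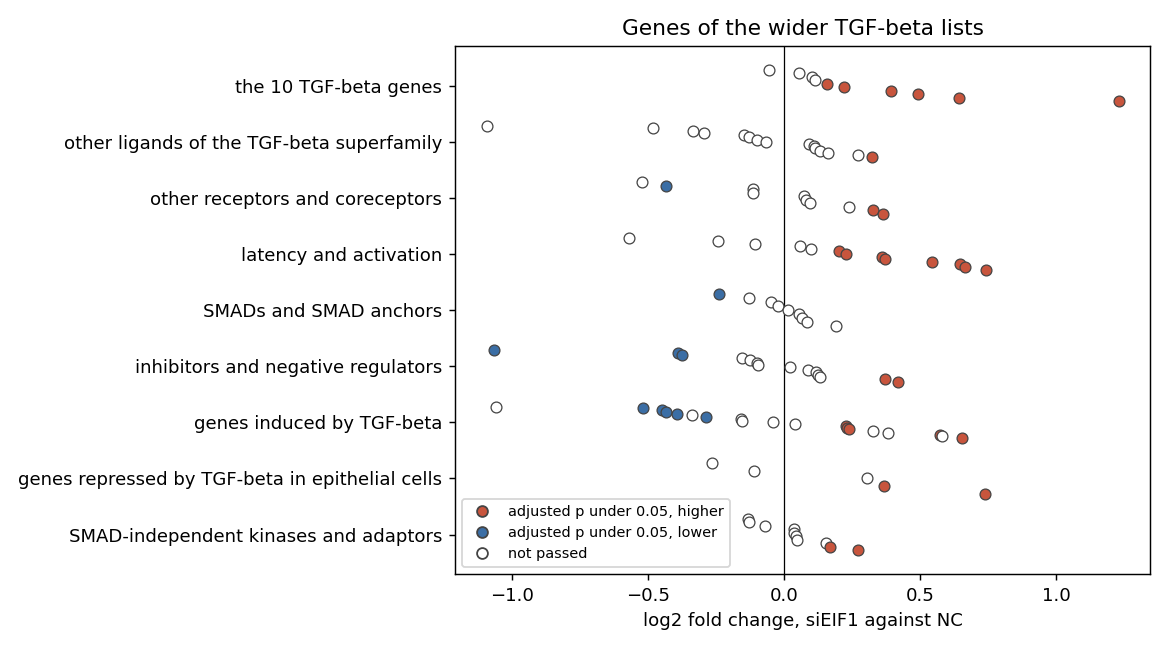
Log2 fold change (siEIF1 against NC) of each tested gene, by list, with red points for adjusted p under 0.05 and higher, blue for adjusted p under 0.05 and lower, and white for not passed. In the latency and activation list 8 of 13 genes are red and 0 blue, while the list of 19 induced genes holds 5 red and 5 blue points. Of all tested genes, 10.2% were called higher and 10.4% lower. The lists were written with earlier results of these libraries known.

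Among other ligands of the superfamily, 1 of 15 tested genes rose (6.67%, against 10.2% of all tested genes) and 0 fell (against 10.4%). Their median log2 fold change was -0.066. BMP6, a bone morphogenetic protein also known for its control of iron balance, rose from 3.98 ± 0.0436 to 4.91 ± 0.416 FPKM (log2 fold change 0.33, SE 0.079, adjusted p = 0.0107 by edgeR). The BMP6 call was lost without siEIF1 replicate 2 (0.273) and with limma (an alternative fit) run with no filter. BMP4, the most abundant of these ligands, was at 30.3 FPKM in NC and 32.2 FPKM in siEIF1 libraries and did not pass (adjusted p = 0.357). INHBE, an activin subunit, had a log2 fold change of -1.09 (SE 0.417) at 18.8 mean counts and did not pass (adjusted p = 0.0837), but passed with the replicate block (adjusted p = 0.0221). Without siEIF1 replicate 1, its highest siEIF1 library (23 counts, with 5 and 10 in replicates 2 and 3), its log2 fold change was -1.81 (edgeR adjusted p = 0.0078).

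Of 10 other receptors and coreceptors, 2 rose (against 10.2% of all tested genes) and 1 fell (against 10.4%). The BMP type II receptor BMPR2 rose from 2.53 ± 0.115 to 3.13 ± 0.135 FPKM (log2 fold change 0.33, SE 0.055, edgeR adjusted p = 0.000945). CD109, a membrane protein that binds TGF-beta and dampens its receptor, rose from 0.83 ± 0.104 to 1.06 ± 0.0551 FPKM (log2 fold change 0.36, SE 0.099, edgeR adjusted p = 0.0186). The CD109 call was lost with limma, and without NC replicate 1 (0.309), NC replicate 2 (0.321) or siEIF1 replicate 2 (0.303). RGMB, a BMP coreceptor, fell from 15.8 ± 1.03 to 11.5 ± 0.97 FPKM (log2 fold change -0.44, SE 0.060, edgeR adjusted p = 0.00023). ACVR2B, an activin receptor, had an adjusted p of 0.0509 by edgeR and passed with the replicate block.

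The latency and activation list, which holds binding proteins, microfibril proteins, integrins and proteases, had the largest share of rises. In it, 8 of 13 tested genes rose (61.5%, against 10.2% of all tested genes) and 0 fell (against 10.4%). Its median log2 fold change was 0.229. The list was written with earlier results of these libraries known, so nothing is read from its share. ITGB8, the integrin subunit that pairs with ITGAV to release TGF-beta from its propeptide, stood at 0.86, 1.1 and 1.03 FPKM in NC replicates 1 to 3 and at 1.73, 1.56 and 1.64 FPKM in siEIF1 replicates 1 to 3. All siEIF1 libraries were above NC, and ITGB8 rose by a log2 fold change of 0.74 (SE 0.084, edgeR adjusted p = 4.84e-05). FBN1, the fibrillin of the microfibrils to which the binding proteins attach, was at 6.06, 7.25 and 7.31 FPKM in NC and 9.49, 11.24 and 11.49 FPKM in siEIF1. It rose by 0.66 (SE 0.080, edgeR adjusted p = 7.8e-05), with replicate 1 the lowest library in both groups.

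MMP2, a gelatinase that can release latent TGF-beta, had 6.83, 7.43 and 7.71 FPKM in NC and 11.85, 11.22 and 10.81 FPKM in siEIF1 replicates 1 to 3, without overlap. It rose by a log2 fold change of 0.65 (SE 0.061, edgeR adjusted p = 1e-05). The other 5 genes that rose, named after their values were seen, were the binding proteins LTBP3 (30.3 to 38.6 FPKM) and LTBP4 (6.21 to 7.17 FPKM), the TGF-beta activator thrombospondin THBS1 (11.4 to 16.3 FPKM), and the integrin subunits ITGAV (11.7 to 13.3 FPKM) and ITGB5 (68.6 to 86.8 FPKM). Those that did not pass were FURIN, which cleaves the propeptide (16.4 and 17.3 FPKM), the membrane protease MMP14 (103.2 and 106.0 FPKM), FBN2, ITGB3 and NRROS. With LTBP2 and LTBP1 beside them, 3 of the 4 LTBP genes had every siEIF1 library above NC, as for 18.2% of tested genes, and LTBP1 did not. These genes were set together with their values known, so nothing is read from this count.

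Of the 9 tested SMADs and SMAD anchors, 0 rose (against 10.2% of all tested genes) and 1 fell (11.1%, near the 10.4%). The log2 fold changes ran from -0.24 to 0.19. SMAD2 (0.084, SE 0.051), SMAD3 (0.053, SE 0.055) and SMAD4 (-0.024, SE 0.052) did not pass. ZFYVE16 (endofin), a SMAD anchor of early endosomes, fell from 1.20 ± 0.0115 to 1.003 ± 0.0907 FPKM (log2 fold change -0.24, SE 0.072, edgeR adjusted p = 0.0311). That call held in 7 of 15 alternatives and was lost with DESeq2, with limma, without NC replicate 1 (-0.23), 2 (-0.247) or 3 (-0.245) and without siEIF1 replicate 2 (-0.178).

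The inhibitors and negative regulators went both ways. Of 14 tested, 2 were higher (14.3%, against 10.2% of all tested genes) and 3 lower (21.4%, against 10.4%). FST (follistatin), which binds and neutralizes activins, had 9.11, 9.71 and 8.13 FPKM in NC replicates 1 to 3 and 3.88, 4.67 and 4.13 FPKM in siEIF1 replicates 1 to 3. The groups were well apart, and FST fell by 1.07 on the log2 scale (SE 0.0926, edgeR adjusted p = 4.63e-06), the only gene of the 95 past the fold limit. CHRDL1, a secreted BMP antagonist, rose from 11.96 ± 0.887 to 15.8 ± 0.437 FPKM (log2 fold change 0.42, SE 0.059, edgeR adjusted p = 0.000265). PMEPA1, a TGF-beta target that sequesters receptor-activated SMADs, rose from 4.52 ± 0.165 to 5.77 ± 0.243 FPKM (log2 fold change 0.37, SE 0.061, edgeR adjusted p = 0.000791). The other two that fell, named after their values were seen, were the SMAD corepressor TGIF1 (7.64 to 5.74 FPKM) and the BMP antagonist NOG (3.99 to 3.04 FPKM).

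Genes known to be induced by TGF-beta were divided: 5 of 19 rose (26.3%), 5 fell (26.3%) and 9 did not pass. Over all tested genes, 10.2% rose and 10.4% fell. The median log2 fold change of the list was -0.039. ACTA2, the smooth muscle actin of myofibroblasts, stood at 11.34, 12.73 and 12.04 FPKM in NC and 18.56, 19.4 and 18.11 FPKM in siEIF1 replicates 1 to 3, and rose by 0.66 (SE 0.062, edgeR adjusted p = 9.43e-06). Actin genes are close in sequence and only uniquely mapped reads were counted, so reads that match more than 1 of them are not in these values. KLF10, an early TGF-beta response gene, moved the other way and fell from 10.5 ± 0.225 to 7.68 ± 0.125 FPKM (log2 fold change -0.44, SE 0.052, edgeR adjusted p = 7.21e-05).

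Named after their values were seen, the other induced genes that rose were the cell cycle inhibitor CDKN2B (9.47 to 13.9 FPKM), fibronectin FN1 (8.16 to 9.45 FPKM), TPM1 (60.9 to 70.8 FPKM) and BHLHE40 (5.26 to 6.06 FPKM). Genes of the list that fell included the collagen cross-linking enzyme LOX (41.7 to 30.1 FPKM), TAGLN (2.65 to 1.99 FPKM) and JUNB (17.6 to 14.2 FPKM, with overlapping groups). CCN2, the connective tissue growth factor, was at 74.5 FPKM in NC and 65.8 FPKM in siEIF1 and did not pass. Under the replicate block 9 of the 19 fell, with CCN2, CDKN1A, IL11 and HMGA2 gained. The share of all tested genes that fell under the block is not given here, so this count has no background. IL11 had 21.0 mean counts and a log2 fold change of -1.06 (SE 0.379) in the main fit, and did not pass (edgeR adjusted p = 0.0655). Without siEIF1 replicate 1, its highest siEIF1 library (20 counts, with 16 and 7 in replicates 2 and 3), it was -1.35 (edgeR adjusted p = 0.0396).

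Of the 5 tested genes known to be repressed by TGF-beta in epithelial cells, 2 rose and 0 fell. The shares of all tested genes were 10.2% and 10.4%. ID3, an inhibitor of basic helix-loop-helix factors that BMP signalling induces, was at 9.07, 9.21 and 12.8 FPKM in NC and 17.73, 18.9 and 14.37 FPKM in siEIF1 replicates 1 to 3. Replicate 3 was the highest NC and the lowest siEIF1 library, and ID3 rose by 0.74 (SE 0.128, edgeR adjusted p = 0.0012). ID1, of the same family, rose from 19.5 ± 0.754 to 24.7 ± 1.22 FPKM (log2 fold change 0.37, SE 0.062, edgeR adjusted p = 0.00103). ID2 had a log2 fold change of 0.31 (SE 0.108, edgeR adjusted p = 0.0636) and passed with the replicate block. MYC (log2 fold change -0.111, SE 0.048) and CDC25A (-0.265, SE 0.124) lay the other way and did not pass. In CPM all their siEIF1 libraries were below all NC libraries, as for 18.9% of tested genes.

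**Figure D4:**
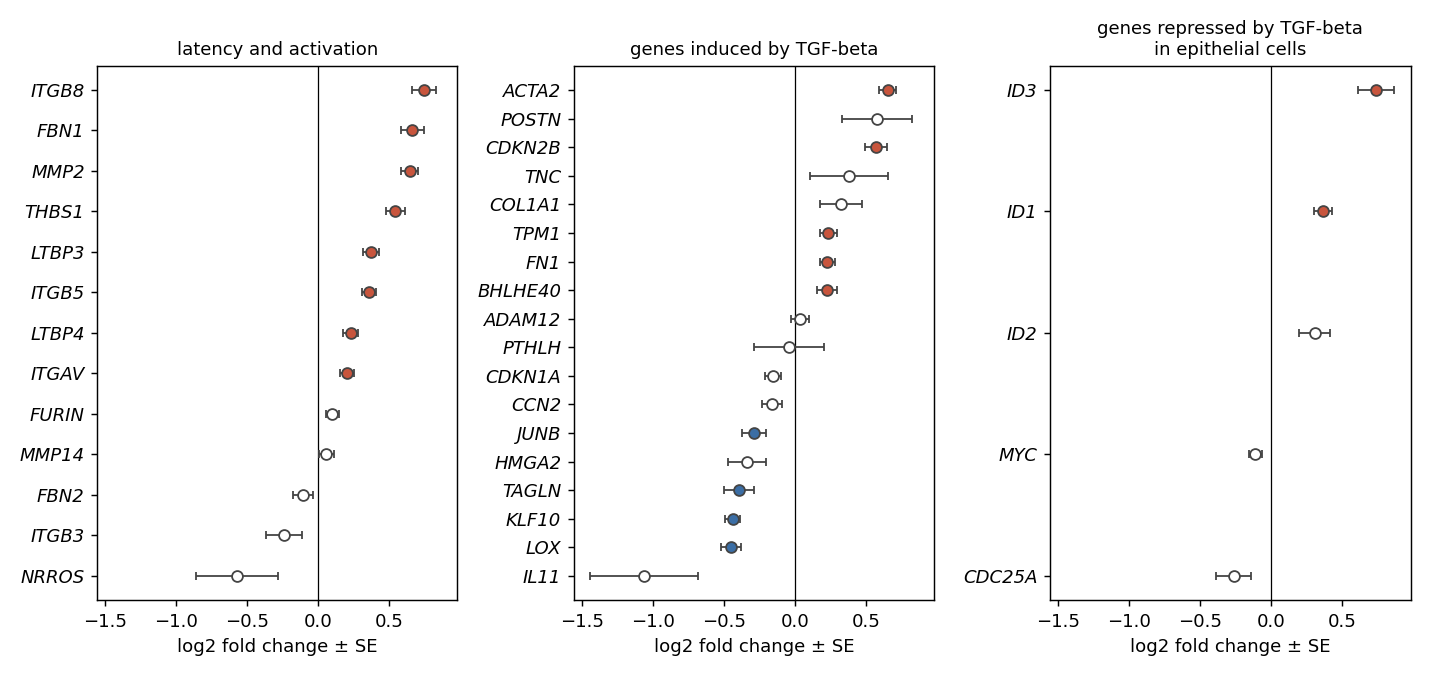
Log2 fold change (siEIF1 against NC) with its standard error for tested genes of 3 lists, ordered by size, with red and blue points for adjusted p under 0.05 and white for not passed. ITGB8, FBN1 and MMP2 lead the latency and activation list, ACTA2 (0.66) and KLF10 (-0.44) lie on opposite sides of 0 among the induced genes, and ID3 (0.74) leads the repressed genes.

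In the last list, of kinases and adaptors that carry TGF-beta signals without SMADs, 2 of 10 rose and 0 fell. Among all tested genes, 10.2% rose and 10.4% fell. TAB1, an activator of the kinase TAK1, rose from 4.32 ± 0.0874 to 5.15 ± 0.457 FPKM (log2 fold change 0.27, SE 0.068, edgeR adjusted p = 0.0124). It lost its call with limma and without NC replicate 3 (0.249). SHC1, an adaptor that links receptors to the ERK pathway, rose from 52.9 ± 1.61 to 58.7 ± 1.33 FPKM (log2 fold change 0.17, SE 0.045, edgeR adjusted p = 0.0167). Its call was lost without NC replicate 2 (0.146), NC replicate 3 (0.173) or siEIF1 replicate 2 (0.17), and with limma run with no filter. MAP3K7, which encodes TAK1 itself, and RHOA did not pass (log2 fold changes -0.13 and 0.049).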

How the data were processed

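The authors trimmed reads with FASTX-Toolkit 0.0.13, aligned them to GRCh38 with HISAT2 and deposited raw counts of uniquely mapped reads for 30618 genes. The FPKM values deposited for 30275 genes are fragments scaled to transcript length and library size. Counting program, strand setting and annotation release are not given in the sources used here. Groups and replicate numbers came from the sample titles, and 0 columns were left unmatched.

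Counts were fitted with edgeR 4.0.16 in R 4.3.3 (filterByExpr, TMM, quasi-likelihood test, Benjamini-Hochberg adjustment over 16749 genes), after the code was tested on simulated data. The standard error was derived from the F statistic. Low-count genes carry wider errors at 26499929 to 31431479 counts a library. DESeq2 1.42.0, which the authors used, and limma 3.58.1 on log2 (FPKM + 1) or log2 (FPKM + 0.1) were alternatives, as were other normalizations and filters, a replicate block and leaving out each library.

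Same-numbered NC and siEIF1 libraries deviated together (r = 0.177, 0.189 and 0.248), so the numbers were taken to pair the samples in the replicate block. The main edgeR fit did not use this pairing, and values given without mention of the block come from unpaired fits. This pairing comes from the data, since the labels do not say what a number marks. No replicate pair agreed within sampling noise.

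The 10 genes and the gene lists were chosen with earlier results of these data known. Named in each list were up to 3 genes of 50 or more mean counts that had an adjusted p under 0.05 and the smallest p, and all genes past a fold of 2 or 0.5. For TGFB3, the 3 most correlated genes were named. Gene positions came from GENCODE on GRCh38. A total of 26 listed genes were under the low-count filter, and BMP5, GDF2, GDF3, GDF10, NODAL, AMHR2, LRRC32, BGN and SNAI2 were not analysed here. An item that falls under these lists and the naming rule is counted but not reported here by name, and is not drawn in the plot of 3 lists with standard errors.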

Additional observations from a re-analysis of the deposited data

How the results depend on the processing

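Of the 10 TGF-beta genes, TGFB3, TGFBR3, LTBP2 and TGFBI were called higher under all 15 alternatives, TGFBR1 under 9 and TGFB1 under 6. The number called higher lay between 4 and 6. All alternatives refit libraries of the comparison that was in view when these genes were chosen. These counts therefore describe the processing and are not evidence about the genes. TGFB3 had a log2 fold change of 0.305 with limma on log2 (FPKM + 1), because the added 1 is larger than its FPKM. The median log2 fold change of the 10 genes was 0.189, and 0.165 with limma on log2 (FPKM + 0.1) and 0.144 with limma on log2 (FPKM + 1), with or without the filter. In the wider lists, limma on log2 (FPKM + 1) with no filter called 11 genes higher and 6 lower, where 22 and 10 were called with edgeR, and limma on log2 (FPKM + 1) called 0 past the fold limit, filtered or not, where edgeR called 1. Without a filter on low counts, 16 were lower and 3 were past the fold limit. With the replicate block, 16 were lower and 3 past the fold limit. The shares of all genes called under these alternatives are not given here, so these counts have no background. The block added INHBE, ACVR2B, SMURF2, CCN2, CDKN1A, IL11, HMGA2 and ID2, lost none, and changed no other call. Leaving out a library in turn gave 1 to 3 genes past the fold limit, with 3 without siEIF1 replicate 1. No direction reversed among the 6 called TGF-beta genes and the 18 genes chosen by the naming rule. Of those 18 genes, 11 kept their call with limma on log2 (FPKM + 1) with no filter. BMP6, BMPR2, CD109, ZFYVE16, ID3, TAB1 and SHC1 lost it there. With the filter, limma lost CD109, ZFYVE16 and TAB1 at either added value. The other called genes of the lists were not followed one by one. Counting error limits TGFB3 most, at 28 to 107 counts a library.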
